A study of Mus musculus with 16 samples.

Results

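The genes described here are 9 cathepsins, Ctsa, Ctsb, Ctsc, Ctsd, Ctsf, Ctsh, Ctsl, Ctss and Ctsz, chosen by name and matched by Ensembl identifier. They are 9 of the 25006 gene identifiers in the count files. The comparisons were between the other cathepsins and Ctss, a gene known from microglia, and between control and MCU-KO mice. MCU-KO mice lack the mitochondrial calcium uniporter in dopaminergic neurons.

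mRNA was collected with the RiboTag method from dopaminergic neurons of the substantia nigra pars compacta (SNc) of 8 control and 8 MCU-KO mice, with 1 library per mouse, and polyA RNA was sequenced. A further MCU-KO mouse counted in the study's RNA-seq was not analysed here. Control mice had the genotype DAT-Cre +/- and MCU-KO mice the genotype DAT-Cre+/- MCU fl/fl, and both were labelled p45. All 16 mice therefore carried Cre under the dopamine transporter (Slc6a3) locus. All had also received an AAV that expresses an epitope-tagged ribosomal protein and tdTomato where Cre is present, and tissue was taken 30 days later. The controls came from DAT-Cre breeding with C57/BL6 mice and not from litters of the floxed line, so breeding and genotype cannot be told apart. Tagged ribosomes were immunoprecipitated from dissected tissue, and libraries of the tissue before precipitation were not analysed here.

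Cathepsins are proteases of the lysosome. They are made as inactive precursors in the endoplasmic reticulum, marked with mannose 6-phosphate for transport, and activated in the acid lumen of endosomes and lysosomes. Cathepsin D is an aspartic protease, cathepsin A is a serine carboxypeptidase, and the products of Ctsb, Ctsc, Ctsf, Ctsh, Ctsl, Ctss and Ctsz are cysteine proteases. In the brain cathepsins D, B and L are known from neurons, where loss of cathepsin D causes lysosomal storage disease, and cathepsin S is known from microglia, which also make cathepsins B, D, H and Z.

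The promoters of several cathepsins held an E-box, and the window before Ctss held none. In the RefSeq promoters on GRCm38.p6, 7 of the 9 genes had an entry (Ctsa with a pair of start sites), and the 250 bases before each start were searched. The palindrome CACGTG, the core of the E-box read by the lysosomal regulators TFEB and TFE3 among other factors, was found before Ctsa, Ctsd, Ctsf and Ctsl, which is 4 of the 7 genes and 4 of their 8 windows. In Ctsa it was before the downstream start and not before the other. It was found in 6.02% of all 32851 promoters, and it reads the same on both strands. It was not found before Ctsc, Ctss or Ctsz. The stretches of 30 bases that hold it are shown 5′ to 3′ on the strand of the gene, with the palindrome in capitals:
Ctsa, chr2:164833743-164833772, plus strand: gaacaatgagcaaactgtCACGTGatgcag
Ctsd, chr7:142388048-142388077, minus strand: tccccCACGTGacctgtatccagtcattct
Ctsd, chr7:142387908-142387937, minus strand: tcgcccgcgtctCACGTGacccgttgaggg
Ctsf, chr19:4855074-4855103, plus strand: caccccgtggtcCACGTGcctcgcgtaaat
Ctsl, chr13:64370739-64370768, minus strand: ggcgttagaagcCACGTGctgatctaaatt

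The first base of the palindrome lay at -12 in Ctsa, -245 and -98 in Ctsd, -79 in Ctsf and -236 in Ctsl, with -1 as the base before the RefSeq start. The sites of Ctsa and Ctsl and the -98 site of Ctsd lay inside the gene as GENCODE gives it, downstream of its first annotated start. The letters GAGGAA, the core read by the myeloid factor PU.1 and by other ETS factors, were searched on both strands and found before Ctss and Ctsc, against 23.3% of all promoters. The same core followed by GT was found before Ctsc and not before Ctss, against 2.44% of all promoters. TATAAA, searched on both strands, was found before Ctss alone, against 12.4% of all promoters. It lay at -233 on the strand opposite to the gene. The longer CLEAR palindrome was in none of the 8 windows and in 0.240% of all promoters. The window before Ctss is shown in full, because Ctss is the microglial gene of the comparison, with the GAGGAA match at -164 in capitals:
Ctss, chr3:95526536-95526785, plus strand: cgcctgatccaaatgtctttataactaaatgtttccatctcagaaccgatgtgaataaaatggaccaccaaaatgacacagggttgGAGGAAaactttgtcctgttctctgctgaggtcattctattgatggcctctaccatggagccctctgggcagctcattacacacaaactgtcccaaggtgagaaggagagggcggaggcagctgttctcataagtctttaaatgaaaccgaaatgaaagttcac
A match of letters is a description of the window and does not show that a factor binds there.

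The libraries held between 14129527 and 22016362 counts, and MCU-KO mouse 8 had the lowest total. With 3 counts as the smallest amount taken as detectable, the limit per library was 0.136 to 0.212 CPM (counts scaled to a library size fixed for all), for counting error only. The targeted gene Mcu ranged from 120 to 828 normalized counts in control and from 5.82 to 410 in MCU-KO mice, so the genotypes overlapped (log2 fold change −1.19, 95% interval −2.41 to 0.04, unadjusted p = 0.0569, edgeR). The paper verified the knockout by other means, with qRT-PCR of Mcu in RiboTag mRNA and imaging of mitochondrial calcium. Normalized counts are counts divided by a size factor that sets the libraries to a common depth. All 13 dopaminergic neuron markers, Th and Slc6a3 among them, were counted in every mouse, with summed levels of 289984 to 373380 normalized counts in control and 247583 to 414944 in MCU-KO mice. RNA of other cells was present too. The 15 microglial markers summed to 1863 to 5066 in control and 1964 to 7583 in MCU-KO mice, the astrocyte markers to 17163 to 29924 and 19194 to 31845, the oligodendrocyte markers to 55729 to 108973 and 66445 to 126814, and the endothelial markers to 145 to 675 and 144 to 419. None of the 15 microglial markers was at 0 in all mice, and 6 of them were counted in every mouse. The mean log2 level of the microglial markers was 0.64 higher in MCU-KO mice, a difference within the spread between mice (exact permutation p = 0.169, n = 8 and 8).

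Per kilobase of exon, the aspartic protease Ctsd was the most abundant of the 9 cathepsins in control mice, followed by the cysteine protease Ctsb. Ctsl, Ctsf, Ctss and Ctsa followed with means between 539 and 704, Ctsz was lower, and Ctsh and Ctsc were near or at 0 in most mice. Ctsd (chromosome 7, 142375911 to 142388038, minus strand, GRCm38) ranged from 11683 to 17957 normalized counts in control mice with a median of 15222, and from 12411 to 15021 in MCU-KO mice with a median of 13669. All 8 MCU-KO mice lay below the control median and inside the control range. Per kilobase Ctsd stood at 6313 in control and 5817 in MCU-KO mice, above 98.6% and 98.5% of the 12390 genes tested. A sequence of 50 bases in Ctsd was shared with Gm49369, an overlapping gene on the same strand, at 32.4% of its positions. Reads from those positions cannot be told apart from reads of Gm49369.

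Ctsb (chromosome 14, 63122462 to 63145923, plus strand), an endopeptidase that also trims dipeptides from protein ends, ranged from 12832 to 20775 in control mice with a median of 16945, and from 13320 to 19127 in MCU-KO mice with a median of 16422. The MCU-KO range lay inside the control range. Its level per kilobase was 2765 in control and 2671 in MCU-KO mice, above 96.2% of tested genes in control. Ctsd exceeded Ctsb per kilobase in 8 of 8 control mice (log2 ratio 1.20 ± 0.19 SD, exact sign-flip p = 0.0078, adjusted p = 0.0208 over 8 pairs of neighbours). Ctsd and Ctsb together made up 77.4% ± 1.85 (SD, n = 8) of the summed per kilobase level of the 9 cathepsins in control mice and 74.4% ± 4.67 (SD, n = 8) in MCU-KO mice.

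Ctsl (chromosome 13, 64359337 to 64370890, minus strand), an endopeptidase, ranged from 3361 to 5766 normalized counts in control mice (median 4171) and from 2398 to 7157 in MCU-KO mice (median 4150). The MCU-KO range enclosed the control range, and MCU-KO mouse 7 was the highest of all. Ctsl was below Ctsb per kilobase in 8 of 8 control mice (log2 difference 1.98 ± 0.31 SD, exact sign-flip adjusted p = 0.0208). At 26.3% of its positions, Ctsl shared a sequence of 50 bases with other genes, among them the pseudogene Gm49230 inside it, and reads from those copies cannot be told apart.

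Ctsf (chromosome 19, 4855130 to 4860918, plus strand), a cysteine protease with a long propeptide, ranged from 2158 to 3562 in control mice (median 2754) and from 1512 to 3872 in MCU-KO mice (median 2611). Ctsa (chromosome 2, 164832873 to 164841032, plus strand), which also protects the lysosomal enzymes beta-galactosidase and neuraminidase 1 in a complex, ranged from 2065 to 3346 in control mice (median 2498) and from 1824 to 3273 in MCU-KO mice (median 2604). The coefficient of variation was 17.5% for Ctsf and 19.1% for Ctsa in control mice, and 27.9% and 16.6% in MCU-KO mice. Ctsa overlaps Pltp and Neurl2 on the other strand, as Ctsb overlaps Fdft1 and Ctsz overlaps Nelfcd, and the strand setting of the counting is not given in the sources used here, so reads of such pairs may not be told apart.

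Ctss (chromosome 3, 95526786 to 95556403, plus strand), the endopeptidase that cuts the invariant chain during antigen presentation, behaved differently from the abundant cathepsins. It ranged from 149 to 1544 normalized counts in control mice with a median of 707, and from 435 to 2079 in MCU-KO mice with a median of 947. The highest control mouse had 10.3 times the level of the lowest, and the highest MCU-KO mouse 4.77 times the lowest. The coefficient of variation of Ctss was 69.0% in control and 57.1% in MCU-KO mice, against 15.1% and 5.62% for Ctsd. In the edgeR fit the biological coefficient of variation of Ctss was 0.57, above the 0.37 of genes of its abundance, whereas that of Ctsd (0.14), Ctsb (0.17), Ctsa (0.21) and Ctsf (0.24) was at or below the trend. Of the 8 cathepsins tested, 4 lay above the trend (Ctss, Ctsz, Ctsh and Ctsl), against 38.2% of all genes tested.

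Ctsz (chromosome 2, 174427493 to 174439039, minus strand), a carboxypeptidase, was variable as well. It ranged from 0 to 670 in control mice (median 398) and from 0 to 1238 in MCU-KO mice (median 511), with no count in control mouse 7 and MCU-KO mouse 7. Ctsh (chromosome 9, 90054152 to 90076089, plus strand), an aminopeptidase, had no count in 5 of 8 control mice and 1 of 8 MCU-KO mice, and its highest values were 181 and 295. Ctsc (chromosome 7, 88278085 to 88310888, plus strand), the dipeptidyl peptidase that activates granule serine proteases, had no count in 5 control and 4 MCU-KO mice, and it reached 214 in 1 mouse of each genotype. Ctsc was the one gene of the 9 that did not pass the filter on low counts.

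The order of levels in control mice was therefore Ctsd, Ctsb, Ctsl, Ctsf, Ctss, Ctsa, Ctsz, Ctsh and Ctsc, with means per kilobase of 6313, 2765, 704, 557, 555, 539, 272, 12.2 and 6.19. Of the 8 neighbouring pairs, 4 differed within mice in control. Besides the pairs named above, these were Ctsa over Ctsz (exact sign-flip adjusted p = 0.0312, higher in 7 of 8 mice) and Ctsz over Ctsh (adjusted p = 0.0208, 8 of 8 mice, with no count of either in control mouse 7). Where neither gene has a count, the difference per kilobase reflects exon length alone. Before division by length, Ctsz was above Ctsh in 7 of 8 control mice (exact sign-flip adjusted p = 0.0312). MCU-KO mice were ordered by their own means, where Ctss (849 per kilobase) came between Ctsb and Ctsl (677). There 3 of 8 pairs differed, Ctsd over Ctsb, Ctsb over Ctss and Ctsh over Ctsc (exact sign-flip adjusted p = 0.0208 each). MCU-KO mouse 2 had no count of Ctsh or Ctsc, so its difference in that pair reflects exon length alone. Ctss over Ctsl (exact sign-flip adjusted p = 0.641) and Ctsz over Ctsh (adjusted p = 0.109) did not differ there. With 1 control mouse left out, the pairs Ctsd and Ctsb, Ctsb and Ctsl, and Ctsz and Ctsh passed in all 8 omissions. Ctsa and Ctsz did not pass without control mouse 6, 7 or 8 (adjusted p = 0.0625 each, exact sign-flip test), and without any of the others they were no longer neighbours. Ctsl exceeded Ctsf in 6 of 8 mice, at an adjusted p of 0.05 that was not under the threshold. Ctsf and Ctss (exact sign-flip adjusted p = 0.482) and Ctss and Ctsa (adjusted p = 0.523) could not be ordered, since Ctss lay above Ctsf in 3 of 8 control mice and above Ctsa in 5 of 8. With the longest transcript in place of all exons, Ctsf moved above Ctsl, by 0.86 on the log2 scale in 8 of 8 mice, so the order of those genes depends on the length used. Before division by length Ctsb was above Ctsd, with means of 16730 and 14842 normalized counts, in 6 of 8 control mice.

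**Figure D1:**
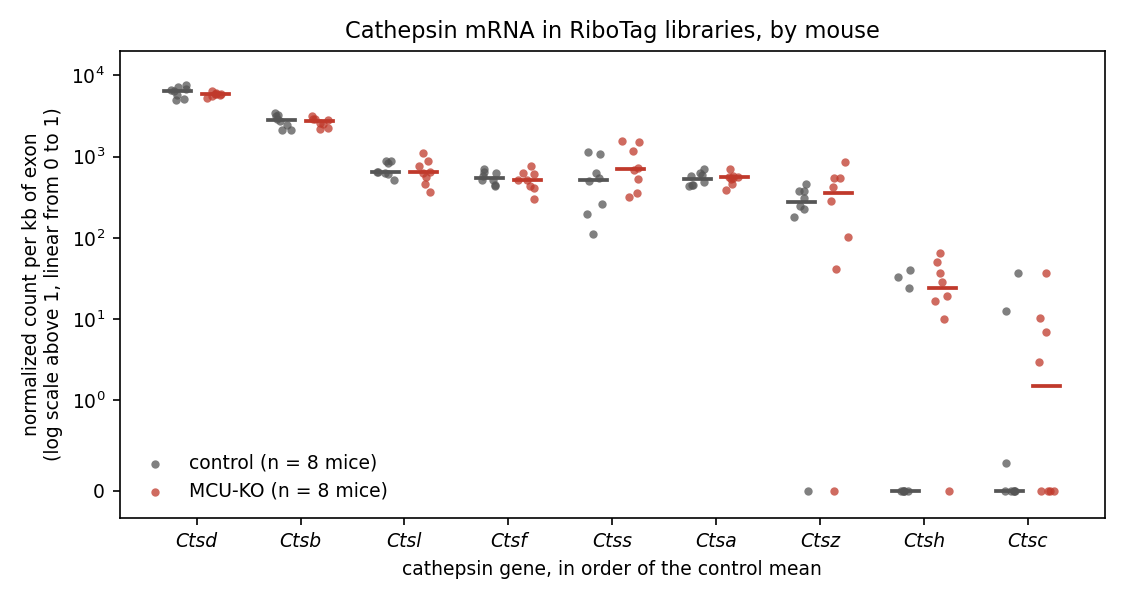
Normalized counts per kilobase of exon (log scale above 1) of the 9 cathepsins, with 1 point per mouse, control in grey and MCU-KO in red, and bars at the medians. Ctsd and Ctsb lie in narrow bands at the top, Ctss spreads from 149 to 2079 normalized counts over the mice before division by length, and Ctsh and Ctsc are at 0 in many mice.

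No cathepsin passed the threshold between MCU-KO and control mice. Of the 8 cathepsins tested 0 passed an adjusted p of 0.05 in edgeR's quasi-likelihood test, against 0.178% of all 12390 genes tested (22 genes), and 0 passed in DESeq2, against 0.404% (50 genes). At an unadjusted p under 0.05 in edgeR there were also 0 of 8, against 4.41% of all genes. The normalized counts of the genotypes overlapped for 9 of 9 cathepsins, and in 0.258% of all genes tested they did not overlap. Of the 8 cathepsins 4 were higher and 4 lower in MCU-KO mice, with a median log2 fold change of −0.02, against 0.00 over all genes tested.

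The precision of that comparison differed between the cathepsins. The 95% interval of the log2 fold change lay within ±0.5 for 5 of the 8 (Ctsa, Ctsb, Ctsd, Ctsf and Ctsl), against 20.1% of all genes tested. For Ctsd the log2 fold change was −0.12 (SE 0.09, 95% interval −0.30 to 0.06), and for Ctsb it was −0.05 (SE 0.11, −0.27 to 0.17). Ctsl stood at −0.06 (−0.43 to 0.31), Ctsf at −0.09 (−0.43 to 0.24) and Ctsa at 0.00 (−0.28 to 0.28). Changes of these 5 genes within those bounds could not be told from none with 8 mice in each group.

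The intervals of the variable cathepsins were wide. Ctss was 0.62 higher on the log2 scale in MCU-KO mice (SE 0.42, 95% interval −0.26 to 1.49, edgeR adjusted p = 1.00, unadjusted p = 0.159). The mean level of Ctss was 754 ± 520 normalized counts in control and 1153 ± 658 in MCU-KO mice (SD, n = 8 each). The estimate for Ctss fell from 0.62 to 0.05 when the mean level of the microglial markers was a covariate of the edgeR fit, and 11 of the 13 microglial markers tested had a higher level in MCU-KO mice, with a median log2 fold change of 0.50 and 0 of 13 called. For Ctsz the interval ran from −1.33 to 2.05 around 0.36, which fell to 0.03 without MCU-KO mouse 1, and for Ctsh from −1.68 to 4.11 around 1.21. The smallest exact permutation p of the 9, over all splits of the 16 mice into 8 and 8, was 0.0788 for Ctsh, and that of Ctsc was 0.556.

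**Figure D2:**
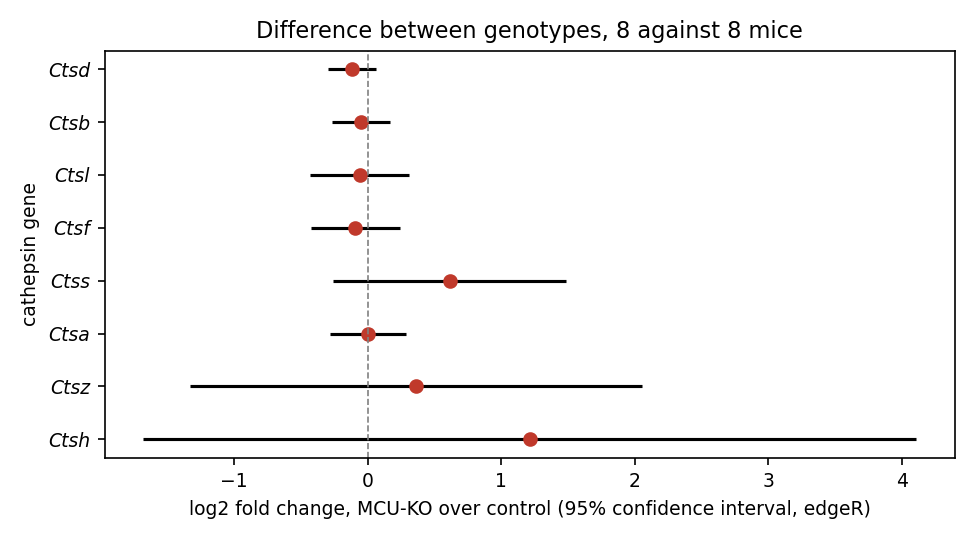
Log2 fold change of MCU-KO over control (horizontal axis) for the 8 cathepsins tested, with 95% confidence intervals from edgeR, n = 8 mice per genotype. All intervals include 0, and those of Ctsd, Ctsb, Ctsl, Ctsf and Ctsa stay within 0.5 of it, while those of Ctss, Ctsz and Ctsh do not.

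The other cathepsins were next set against Ctss within each mouse, as log2 ratios of levels per kilobase (normalized count + 1). Ctsd exceeded Ctss in 8 of 8 control and 8 of 8 MCU-KO mice, by 3.86 ± 1.00 and 2.99 ± 0.88 (mean ± SD). Ctsb exceeded Ctss in all 16 mice as well, by 2.66 ± 1.00 in control and 1.86 ± 0.85 in MCU-KO mice. Ctsl (0.69 ± 1.22 in control, above Ctss in 5 of 8 mice) and Ctsf (0.35 ± 1.19, 5 of 8 mice) were close to Ctss. In MCU-KO mice Ctsl was above Ctss in 4 of 8 mice, Ctsf in 2 of 8 and Ctsa in 2 of 8.

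None of the 8 ratios to Ctss passed the threshold between genotypes in the exact permutation test. Those of Ctsd, Ctsb, Ctsl, Ctsf and Ctsa were 0.87, 0.80, 0.87, 0.88 and 0.75 lower in MCU-KO mice on the log2 scale, with adjusted p of 0.208, 0.208, 0.221, 0.208 and 0.271. The differences are not separate observations, since all 8 ratios share Ctss as their denominator.

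**Figure D3:**
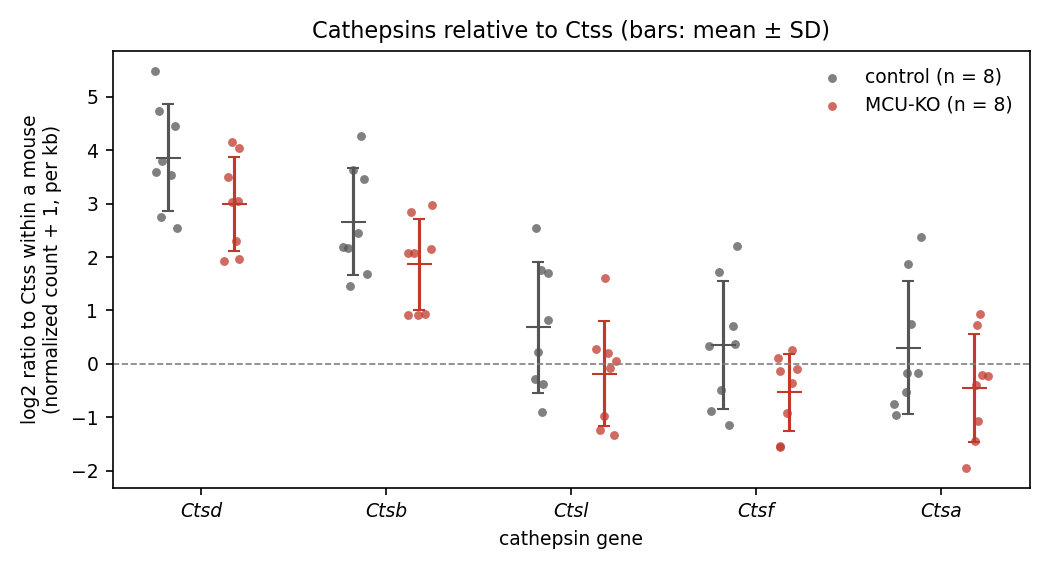
Log2 ratio of each of 5 cathepsins to Ctss within a mouse (vertical axis, levels per kilobase), with 1 point per mouse and bars for the mean ± SD of 8 mice. All points of Ctsd and Ctsb lie above 0, those of Ctsl, Ctsf and Ctsa fall on both sides of it, and the genotypes overlap for each gene.

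From mouse to mouse, Ctss and Ctsz rose with the microglial markers. With the mean log2 level of the markers, the relation of Ctsz rested on the mice without a Ctsz count, and that of Ctss was close to the threshold. The other 7 cathepsins did not pass the threshold with that measure. With summed markers, a measure added after the data were seen, Ctss gave r = 0.740 (permutation p = 0.00166, adjusted p = 0.0149). Ctsh (r = 0.656) and Ctsz (r = 0.643) also passed with that sum (permutation adjusted p = 0.0310 each). Each cathepsin was correlated over the 16 mice with the mean log2 level of the 15 markers, after subtraction of the genotype means (9 relations, 100000 permutations within genotype, n = 16). In libraries of immunoprecipitated RNA, fewer cells of a type, less RNA per cell and less RNA carried through the precipitation cannot be told apart. Ctsz gave Pearson's r = 0.726 (permutation p = 0.00055, adjusted p = 0.00495) and Spearman's rho = 0.703 (permutation p = 0.0038, adjusted p = 0.0342). Without MCU-KO mice 4 and 6, the farthest from the median of the marker level, r of Ctsz was 0.771 (permutation p = 0.00055). That relation rested instead on control mouse 7 and MCU-KO mouse 7, which had no Ctsz count and the lowest marker level of their genotypes. Its adjusted p was 0.0919 without the former and 0.0643 without the latter. Without both, r of Ctsz was 0.503 (permutation p = 0.0948, adjusted p = 0.284).

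Ctss gave r = 0.631 (permutation p = 0.00947, adjusted p = 0.0426) and rho = 0.656 (permutation p = 0.00848, adjusted p = 0.0382). Without MCU-KO mice 4 and 6, which had the highest Ctss and the highest marker levels, r fell to 0.495 (permutation p = 0.106, adjusted p = 0.337) and the relation no longer passed the threshold. Within MCU-KO mice r of Ctss was 0.879 (exact permutation p = 0.00362, n = 8), and 0.693 (exact permutation p = 0.125, n = 6) without mice 4 and 6. Within control mice it was 0.436 (exact permutation p = 0.277, n = 8), where mouse 8 had the lowest Ctss beside a mean log2 marker level above the control median. The summed markers of that mouse, at 2715 normalized counts, were below the control median of 3231. Without control mouse 8, r over the remaining 15 mice was 0.848. With 1 mouse left out, r of Ctss stayed between 0.580 and 0.848. Its call was kept without control mouse 2, 5 or 8 and lost without any 1 of the other 13 mice, with adjusted p of 0.0519 to 0.121.

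For the other cathepsins the relation to the mean log2 level of the microglial markers did not pass the threshold. Ctsh had r = 0.509 (permutation p = 0.0446, adjusted p = 0.134), and Ctsc had r = 0.406 (adjusted p = 0.298). Ctsb (r = 0.320, adjusted p = 0.319), Ctsd (r = 0.290, adjusted p = 0.319) and Ctsf (r = 0.153, adjusted p = 0.692) had positive values, and Ctsa (r = −0.350, adjusted p = 0.319) and Ctsl (r = −0.066, adjusted p = 0.830) negative ones. Microglia make Ctsd and Ctsb too. Per kilobase, Ctsd alone exceeded the sum of the 15 microglial markers (2192 ± 836 in control and 3079 ± 1312 in MCU-KO mice, SD, n = 8 each) in 16 of 16 mice. Ctsb exceeded it in 7 of 8 control and 3 of 8 MCU-KO mice, and the other 7 cathepsins in none. The share of each cathepsin's RNA that came from microglia was not tested.

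**Figure D4:**
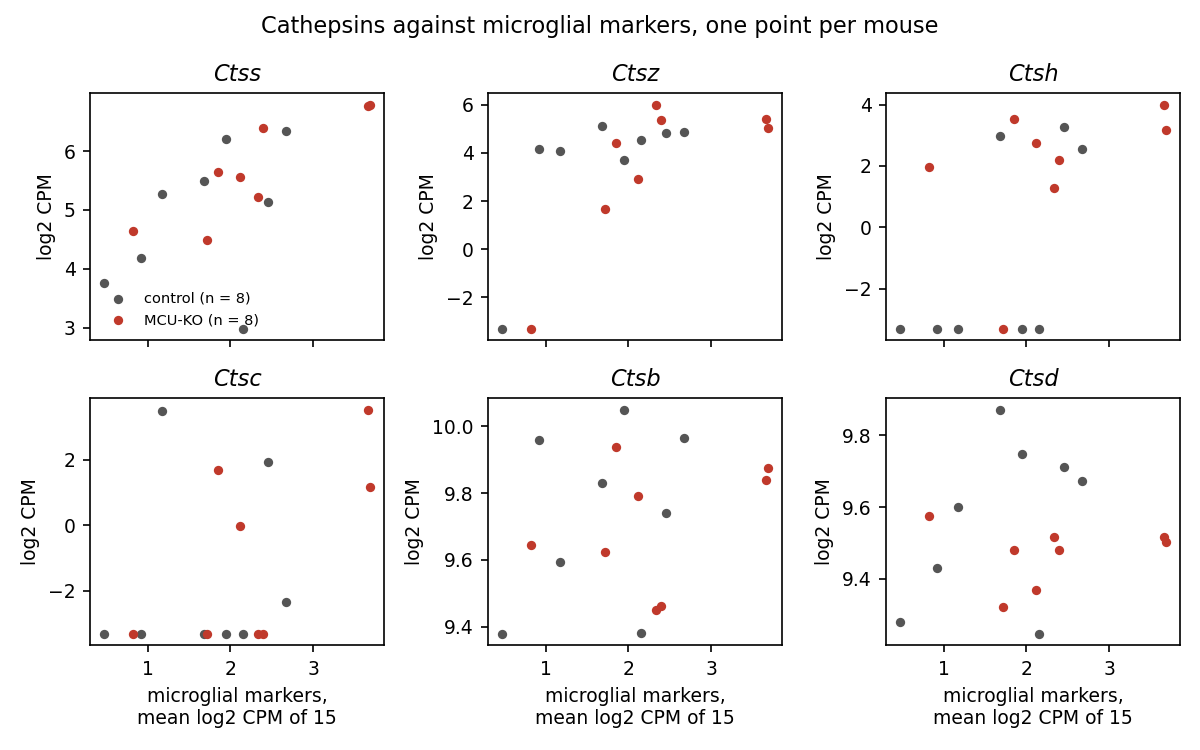
Log2 CPM of 6 cathepsins (vertical axes, with their own ranges) against the mean log2 CPM of 15 microglial markers, with 1 point per mouse. Ctss and Ctsz are higher where the markers are higher, with the lowest Ctsz points at mice without a count, and Ctsb and Ctsd vary within 1 log2 unit without a clear trend.

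Among all 12390 genes tested, those most like each of 4 cathepsins over the 16 mice were named as a description, with no test. For Ctss they were Akap11, Cd74, the invariant chain, and Col9a3 (r = 0.849, 0.849 and 0.847). Col9a3 had no count in 7 of the 16 mice, and Cd74 had none in 1. For Ctsd they were Serpina3n, Cd52 and Ccl17 (r = 0.844, 0.839 and 0.839), of which Cd52 and Ccl17 are genes of immune cells. Their Spearman's rho with Ctsd was 0.812, 0.690 and 0.587, and they had no count in 1, 3 and 2 of the 16 mice. For Ctsb they were the glutamate transporter Slc1a2, which is one of the astrocyte markers, Tmx4 and the synaptic vesicle protein Syt4 (r = 0.863, 0.855 and 0.845), and for Ctsl they were Kcng2, the proton pump accessory protein Atp6ap2 and Ccdc74a (r = 0.814, 0.806 and 0.767). Kcng2 had no count in 3 of the 16 mice. Pairs of cathepsins were described in the same way, with no test. The highest r over the 16 mice was 0.72 for Ctsd and Ctss, then 0.63 for Ctsd and Ctsh and 0.62 for Ctsb and Ctss. Next came Ctsc and Ctsf (0.60), Ctsh and Ctss (0.57) and Ctsb and Ctsd (0.53), with Ctsh and Ctsc at 0 in many mice. It was 0.05 for Ctsl and Ctss and −0.66 for Ctsa and Ctsz. Control mouse 7 and MCU-KO mouse 7, without a Ctsz count, had the highest Ctsa of their genotypes, and without both r of Ctsa and Ctsz was −0.32 over 14 mice.

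None of the genes listed for their part in cathepsin biology passed the threshold between genotypes. Of 13 further cathepsin genes, 9 were at 0 in all mice and 1, Ctso, was abundant enough to be tested (411 ± 220 normalized counts in control and 438 ± 428 in MCU-KO mice, log2 fold change 0.10). Of 10 inhibitors of cysteine cathepsins 4 were tested, 1 higher and 3 lower in MCU-KO mice, with 0 called. The smallest p was that of Cstb, cystatin B, at 3233 ± 419 and 2854 ± 586 normalized counts (log2 fold change −0.18, 95% interval −0.45 to 0.09). Cst3, the secreted inhibitor cystatin C, was chosen after its values were seen. It was above Ctsd per kilobase in 16 of 16 mice, by 2.09 ± 0.32 (SD, n = 8) on the log2 scale in control mice and by 2.14 ± 0.21 (SD, n = 8) in MCU-KO mice.

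Of 18 genes that process, sort or accompany cathepsins, all 18 were tested, 15 higher and 3 lower in MCU-KO mice, with a median log2 fold change of 0.14 against 0.00 over all genes tested and 0 called by edgeR or DESeq2. Over all 12390 genes tested, 6241 were higher. At an unadjusted p under 0.05 there was 1 of 18, against 4.41% of all genes. It was Gnptg, a subunit of the enzyme that begins the mannose 6-phosphate mark. Gnptg ranged from 2563 to 3497 normalized counts in control mice with a median of 2919, and from 1036 to 2640 in MCU-KO mice with a median of 1786. The ranges overlapped at one end. The log2 fold change of Gnptg was −0.69 (SE 0.17, 95% interval −1.05 to −0.33), and its adjusted p was 0.233 in edgeR and 0.0526 in DESeq2, so it did not pass in either. The catalytic subunits of the same enzyme are encoded by Gnptab, at 738 ± 269 and 816 ± 363 normalized counts in control and MCU-KO mice (log2 fold change 0.15, 95% interval −0.45 to 0.74). Gnptab was chosen after its values were seen. Legumain, Lgmn, which matures several cysteine cathepsins and was also chosen after its values were seen, stood at 1536 ± 264 and 1868 ± 608 (log2 fold change 0.28, 95% interval −0.09 to 0.66).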

How the data were processed

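The authors removed adapters, mapped the reads to mm10 in STAR, and used htseq-count with Ensembl gene models. They deposited whole-number counts per gene and mouse, without normalization. The submitters' processing notes name Trim Galore, the paper cutadapt. Tool versions, strand setting and Ensembl release are not given in the sources used here.

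The 9 cathepsins and all gene lists were chosen with earlier results of these data known. Symbols, positions and exon lengths came from GENCODE M21 on GRCm38 (24942 of 25006 identifiers matched). Genotypes were compared over all genes with edgeR 4.0.16 in R 4.3.3 (filterByExpr, TMM, glmQLFTest, 12390 genes, Benjamini-Hochberg, threshold 0.05). The fit was also run on counts simulated from the means and dispersions of these data. Mice were compared as separate animals. Normalized counts used the size factors of DESeq2 1.42.0, ratios a pseudocount of 1, and log2 CPM (counts scaled to library size) a prior count of 2. Levels were compared within mice by two-sided exact sign-flip tests (256 sign patterns) and ratios by two-sided exact permutation tests (12870 splits) in numpy 2.4.6. Alternatives included DESeq2, limma 3.58.1, other normalizations and filters, a microglial covariate, a block for the mouse number, and omission of each mouse. Permutation tests per cathepsin, summed markers and the omission of the mice without Ctsz counts were added after the data were seen. Named genes were the 9 cathepsins, Mcu, the genes called or of smallest p in each list, and the 3 genes of highest r for each of Ctsb, Ctsd, Ctsl and Ctss, and Cst3, Gnptab and Lgmn were added after their values were seen. With reads that carry no molecular identifiers, limits of detection cover counting error only.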

Additional observations from a re-analysis of the deposited data

Results flagged for a closer look

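In 3 of the 24 sets of 8 values checked, 1 mouse lay far from the other 7. Chance alone would give 1.2 such sets if the values were normally distributed. That does not hold for Ctsc, which had no count in 5 control and 4 MCU-KO mice. Ctsc had 213.5 normalized counts in control mouse 5, against 0 to 72.2 in the other 7 control mice. In MCU-KO mouse 6, Ctsc had 213.8 normalized counts, against 0 to 60.7 in the other 7. MCU-KO mouse 8 had the smallest library, with a total of 14129527 counts, against 19897268 or more in the other 7 MCU-KO libraries.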

How the results depend on the processing

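No cathepsin was called under any of the 24 alternatives, and no ratio to Ctss passed the threshold under any of 18. The number of genes called over the whole table, 22 as reported, was 50 with DESeq2, which included all 22, and 18 to 24 with 1 mouse left out. Same-numbered mice are different animals, and their deviations from the genotype means had r of −0.06 to 0.03 over genes, so the numbers were taken as names. With the mouse number as a block 14 genes were called, all among the 22, and none was a cathepsin; Ctsz then stood at −0.0229.

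Small fold changes changed sign. Ctsa, at 0.00, was −0.0252 with limma-voom and ran from −0.0590 to 0.0725 with 1 mouse left out. Ctsb ran from −0.0939 to 0.00272 and Ctsl from −0.194 to 0.0338 with 1 mouse left out, while Ctsf kept its sign, from −0.188 to −0.00593. Ctsz, at 0.36, was 0.0312 to 0.555 with 1 mouse left out, −0.64 with the microglial covariate and −0.0788 in the permutation test. Ctss stayed positive, from 0.05 with the covariate to 1.05 with limma-voom, and Ctsh ran from 0.92 to 6.18, the last with the block. With limma-voom the unadjusted p was 0.0296 for Ctss and 0.0326 for Ctsh, each with an adjusted p of 0.645. The cause of these shifts was not tested.

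The count of 2 cathepsins related to the microglial markers was 1 with a prior count of 0.5, 0 to 2 with 1 mouse left out, and 0 without the mice that had no Ctsz count, where 14 mice remained. With summed markers it was 3: Ctss (r = 0.740, permutation adjusted p = 0.0149), Ctsh (r = 0.656, adjusted p = 0.0310) and Ctsz (r = 0.643, adjusted p = 0.0310). Of the 8 neighbouring pairs, 3 or 4 differed with 1 control mouse left out. Ctsc and Ctsh were at 0 in 9 and 6 of the 16 mice, and the cause was not tested.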
